A study of Mus musculus with 384 samples.

Results

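Mouse mammary progenitors from embryonic skin were divided into cycling and non-cycling cells by the reads of Top2a and Mki67, and all other genes were compared between both classes. Wells titled as single embryonic progenitors entered with 50000 or more gene reads, 1500 or more detected genes and no more than 20% of reads from mitochondrial genes, limits that 14 wells missed. A cell counted as cycling with Top2a or Mki67 at 100 CPM or more (counts scaled to the gene reads of the cell), which held for 49 cells. A cell counted as non-cycling with 0 reads of both genes, which held for 37 cells, and the other 37 cells lay between these limits and were left out. Both classes together made up 86 of the 331 single cells kept over the 3 sorted gates of the series.

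The cells came from the skin with mammary buds of female embryos at embryonic day 14. The embryos carried the allele Lgr5-EGFP-IRES-CreER, a reporter in which the Lgr5 locus, a Wnt pathway receptor gene, drives green fluorescence and an inducible Cre recombinase, so both classes share this allele. Cells positive for CD45, CD31 or CD140a were excluded and cells high for CD49f (integrin alpha 6) and for Lgr5 were sorted singly into 1 plate of 384 wells, with no treatment named. Libraries were made with Smart-seq2, which amplifies whole transcripts of single cells, and the same plate held adult basal and adult luminal cells. Animals and litters are not named in the labels, so the gate is 1 sample and its cells do not serve as replicates. No difference between the classes has a test. Intervals below are exact at 95%, by Clopper-Pearson for shares and by a conditional Poisson argument for folds. They hold counting error alone, and amplified reads that carry no molecular identifier can be copies of 1 molecule.

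A dividing cell passes through G1, in which D-type cyclins and their kinases release E2F transcription factors from RB proteins, then copies its DNA in S phase and separates the copies in G2 and M phase. Transcripts of replication enzymes build up around S phase and those of the mitotic machinery in G2 and M. Top2a, a topoisomerase that untangles replicated DNA, and Mki67, a protein that coats mitotic chromosomes, are widely used marks of dividing cells, while cells in early G1 and resting cells can carry little of either.

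Cycling cells held more reads and more genes than non-cycling cells, and the limit of 0 reads itself depends on depth. The median was 789021 gene reads per cycling cell (range 54142 to 1827228) and 537035 per non-cycling cell (52687 to 1836609), while cells between the limits had a median of 795958. After each cell was thinned at random to 50000 reads, the median of detected genes was 4307 against 3525, and a part of this difference in the results below was not tested. Gene reads per spike-in read, a measure of RNA per well, had medians of 34.4 and 23.1, with 32.96 against 18.6 in plate rows K to M and 26.6 against 25.6 in rows N to P. The share of mitochondrial reads had medians of 5.13% and 5.46%. All 9 markers of mammary epithelium that were checked were at 5 CPM or more in both classes, with summed levels of 4497 CPM in cycling and 4638 CPM in non-cycling cells.

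The classes rest on Top2a (ENSMUSG00000020914.17, GRCm38 chromosome 11, 98992943 to 99024189, minus strand) and Mki67 (ENSMUSG00000031004.8, chromosome 7, 135689784 to 135716361, minus strand), so their levels are a description of the rule. Top2a ran from 0 to 2366 CPM with a median of 476 in cycling cells, and Mki67 from 0 to 1635 CPM with a median of 352. Both genes reached 100 CPM in 30 of 49 cycling cells (61.2%, interval 46.2% to 74.8%), only Top2a in 11 and only Mki67 in 8. The cycling cells closest to the limit had 116.5, 128.4 and 154.6 CPM in their higher gene, and the closest cells left out had 99.8, 80.98 and 68.9 CPM. The 4 wells without a cell had no read of either gene among 34 to 563 gene reads, too few to show whether these genes carry over between wells. The well of 50 embryonic cells held Top2a at 243 CPM and Mki67 at 115.8 CPM, next to 319.9 and 197 CPM in the sum of all kept embryonic cells.

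The share of cycling cells was 39.8% in the embryonic gate (interval 31.1% to 49.1%), 4 of 100 in the adult basal gate (1.10% to 9.93%) and 0.926% in the adult luminal gate (1 cell, 0.0234% to 5.05%). By another rule, with cells thinned to 50000 reads and 5 reads of Top2a or Mki67 as detection, 50 embryonic, 5 basal and 1 luminal cell were positive. Each gate is 1 sample, so these shares are a description without a test between gates. Within the embryonic gate 9 of 14 cells in plate rows A to J, 22 of 53 in rows K to M (41.5%) and 18 of 56 in rows N to P (32.1%) were cycling.

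**Figure D1:**
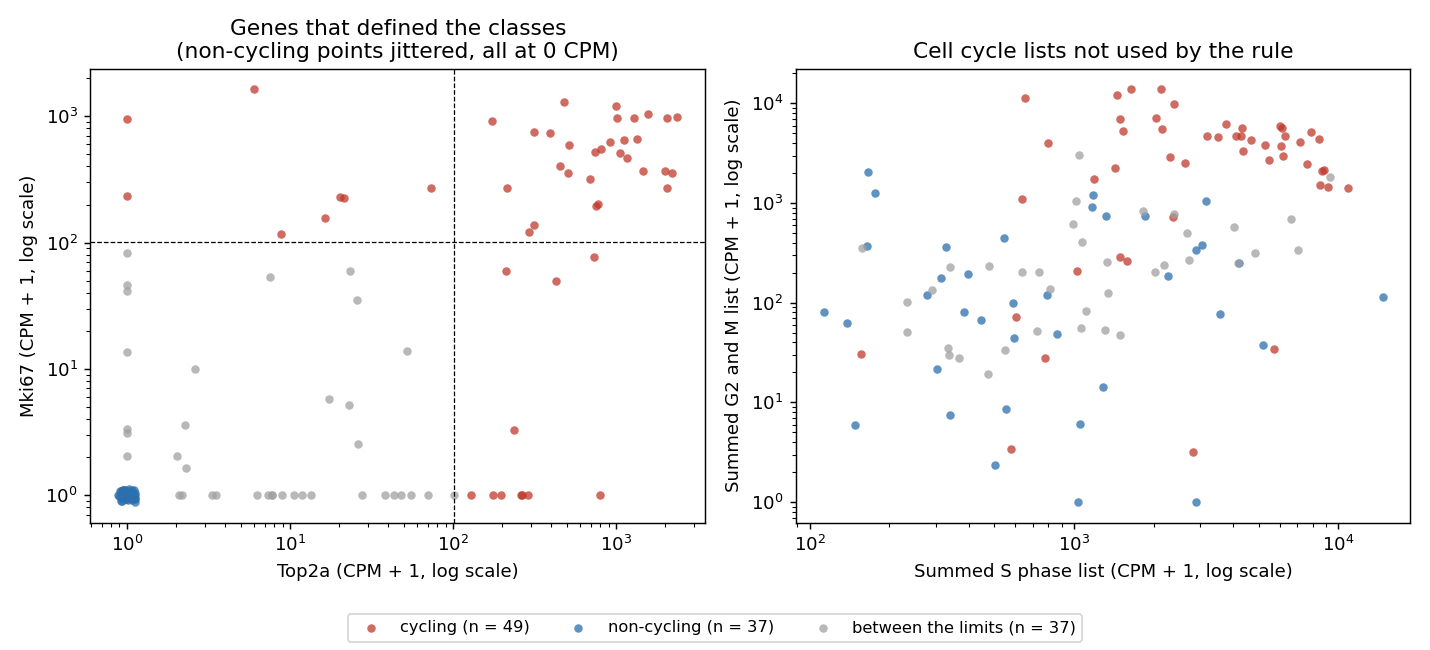
Left, Top2a against Mki67 per embryonic cell, as CPM + 1 on log axes with dashed lines at the limit of 100 CPM, and right, the summed S phase list against the summed G2 and M list per cell, on the same scale; each point is 1 cell, coloured by class. On the right 34 of 49 cycling cells lie above the highest non-cycling cell on the G2 and M axis, while the classes overlap on the S phase axis.

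Levels of a class are reads summed over its cells, scaled to the summed gene reads (40884014 in cycling and 19818785 in non-cycling cells), and log2 ratios of cycling over non-cycling use a prior of 1 CPM. Of 12297 other genes at 5 CPM or more in either class, 2554 were 2-fold or more higher in cycling cells (20.8%) and 2268 were 2-fold or more lower (18.4%). The median log2 ratio was 0.02. Among the 5654 genes at 50 CPM or more the shares were 12.3% and 11.4%. These shares are the background for the counts of list members that follow.

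Mitotic genes showed the widest separation. Both rule genes are marks of division, so genes read in the same cells separate in part by the choice of cells. The lead of mitotic over S phase genes, in lists and in single genes, is therefore a description and was not tested apart from the rule. Of 29 measured G2 and M genes, 28 were 2-fold or more higher in cycling cells and none was 2-fold lower (median log2 ratio 5.07), against the 20.8% of all genes that were higher. Cdk1, the kinase that drives entry into mitosis, was at 329 CPM in cycling and 4.54 CPM in non-cycling cells, 72.4-fold higher (58.9 to 90.1, log2 ratio 5.90, or 7.10 without the top well of each class). Ccnb1, the cyclin B1 partner of Cdk1, was at 219 against 0.101 CPM, the latter from 2 reads in 1 cell. Ube2c, a ubiquitin-conjugating enzyme of the anaphase-promoting complex, was at 370.4 against 7.82 CPM (47.4-fold, 40.4 to 55.9), Cenpf, a kinetochore protein, at 363 against 7.77 CPM (46.7-fold, 39.9 to 55.1, log2 ratio 5.38, or 6.61 without top wells), and Smc4, a condensin subunit, at 352 against 47.5 CPM (7.41-fold, 6.93 to 7.92, log2 ratio 2.86, or 3.61 without top wells). Aurka, a spindle pole kinase, was the member that stayed within 2-fold, at 48.3 against 40.2 CPM, and 59% of its non-cycling reads lay in 1 well (log2 ratio 0.26, or 1.23 without top wells).

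Per cell, these genes varied widely among cycling cells and were at or near 0 in most non-cycling cells. Cdk1 ran from 0 to 1341 CPM in cycling cells (median 141) and from 0 to 118.8 CPM in non-cycling cells (median 0), and no non-cycling cell exceeded the cycling median. Cenpf ran from 0 to 3194 CPM (median 157) against 0 to 195 CPM (median 0), with 1 non-cycling cell above the cycling median. Ccnb1 ran from 0 to 1762 CPM with a median of 1.93 CPM, and 13 of 49 cycling cells but no non-cycling cell held it at 100 CPM (0 of 37, which allows a share of up to 9.49%). Cyclin B1 was therefore high in a minority of the cells chosen by Top2a and Mki67, and 36% of its cycling reads came from 1 well.

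Among genes at 50 CPM or more that were read in at least 50% of cycling cells without a dominant well, the 12 highest log2 ratios belonged to Cdca8, Knl1, Kif11, Tpx2, Ncapg2, Hmmr, Cdca3, Melk, Bub1, Foxm1, Cdk1 and Kif4. They lay between 5.86 for Kif4, a chromosome-associated kinesin, and 7.40 for Cdca8, borealin of the chromosomal passenger complex. Knl1, a kinetochore scaffold, was at 158 against 0.252 CPM, Kif11, the motor that separates spindle poles, at 148 against 0.202 CPM, and Foxm1, a transcription factor of mitotic genes, at 93.2 against 0.0505 CPM. Knl1, Kif11 and Foxm1 were each read at most 10.98 CPM in any non-cycling cell. Spearman correlations with the sum of Top2a and Mki67 were taken over all kept embryonic cells, the cells between the limits included. Only the 4679 genes at 50 CPM or more in cycling cells entered, a filter that favours genes high in that class. The most alike were Bub1 (0.68), a spindle checkpoint kinase, Kntc1 (0.68), a kinetochore protein, and Knl1 (0.67). Cit (0.67), a kinase of cytokinesis, and Kif15 (0.67), a spindle kinesin, came next. These correlations are across cells of 1 sample that share depth differences, and are given as a description.

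The promoters below are examples that do not stand for their lists, with those of mitotic genes first. A pair of short sequences recurs there in textbook accounts, the cell cycle homology region (CHR, searched as TTTGAA) and the CCAAT box (searched as CCAAT), while replication genes carry E2F sites (searched as TTTCCCGC, TTTGGCGC, TTTCGCGC or TTTGCCGC). All were searched on both strands in RefSeq windows of GRCm38.p6 from 250 bases before to 50 bases after the start of each gene. The stretches below lie before the start, read 5′ to 3′ along the gene, with every match in capitals.
Top2a, chr11:99024190-99024309, minus strand: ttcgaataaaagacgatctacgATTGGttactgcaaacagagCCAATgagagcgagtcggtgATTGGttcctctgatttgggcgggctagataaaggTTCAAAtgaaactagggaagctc
Mki67, chr7:135716460-135716579, minus strand: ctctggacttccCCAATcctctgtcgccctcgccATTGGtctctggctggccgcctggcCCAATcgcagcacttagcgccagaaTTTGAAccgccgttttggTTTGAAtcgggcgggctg
Cdk1, chr10:69352913-69353032, minus strand: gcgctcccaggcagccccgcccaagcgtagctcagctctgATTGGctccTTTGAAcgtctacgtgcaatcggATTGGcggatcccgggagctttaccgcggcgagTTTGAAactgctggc
Cdc20, chr4:118437344-118437463, minus strand: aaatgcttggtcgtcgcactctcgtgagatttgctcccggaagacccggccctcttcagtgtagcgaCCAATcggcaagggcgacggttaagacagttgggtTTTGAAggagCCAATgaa
Mcm6, chr1:128359706-128359825, minus strand: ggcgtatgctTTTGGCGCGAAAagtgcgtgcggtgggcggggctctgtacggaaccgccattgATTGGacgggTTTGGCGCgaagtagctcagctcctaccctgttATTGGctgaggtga
Mcm5, chr8:75109349-75109508, plus strand: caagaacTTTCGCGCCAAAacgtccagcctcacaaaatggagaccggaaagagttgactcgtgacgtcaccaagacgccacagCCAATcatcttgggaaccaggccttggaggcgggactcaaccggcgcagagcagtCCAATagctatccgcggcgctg
The Top2a stretch holds a CHR 23 bases before the start with CCAAT boxes 58, 78 and 98 bases before it. Cdk1 carries CHRs at 15 and 71 bases and CCAAT boxes at 48 and 80 bases before the start, and Cdc20, an activator of the anaphase-promoting complex, a CHR at 18 bases between CCAAT boxes at 8 and 53 bases. Mcm6 and Mcm5, subunits of the replicative helicase, show overlapping E2F matches on both strands in place of a CHR.

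Over the lists, a CHR lay in 17 of 23 windows of G2 and M genes (73.9%), in 3 of 25 windows of S phase genes (12%) and in 17.9% of all 32851 windows. At least 2 CCAAT boxes lay in 47.8% of the G2 and M windows, 36% of the S phase windows and 11.7% of all windows. An E2F match lay in 9 of 25 S phase windows (36%), in 1 of the 23 G2 and M windows and in 2.26% of all windows. The 16 G2 and M genes with a CHR had log2 ratios from 0.26 to 7.03 (median 5.39) and the 6 without one from 1.27 to 7.65 (median 4.10), so the ranges overlapped almost wholly. The 9 S phase genes with an E2F match had a median log2 ratio of 1.90 and the 12 without one of 1.78. A match is a stretch of letters and not a measured binding site.

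DNA replication genes were higher in cycling cells by a smaller margin and were present in part of the non-cycling cells. Of 27 measured S phase genes, 22 were 2-fold or more higher, against 20.8% of all genes, and none was 2-fold lower (median log2 ratio 1.75). The 5 within 2-fold were Mcm4, Mcm6, Mcm2, Gins2 and Tipin. Rrm1, the large subunit of ribonucleotide reductase, was at 383 against 65.7 CPM (5.83-fold, 5.51 to 6.17), Tyms, which makes thymidylate, at 358 against 92.8 CPM (3.85-fold, 3.67 to 4.04), and Pcna, the sliding clamp of DNA polymerase, at 352 against 104.2 CPM (3.38-fold, 3.22 to 3.54). Per cell, Rrm1 ran from 0 to 1280 CPM in cycling cells (median 155) and from 0 to 698 CPM in non-cycling cells (median 4.75), and 7 of 37 non-cycling cells exceeded the cycling median. The small subunit Rrm2 was at 348 against 98.7 CPM, with 87% of its non-cycling reads in 1 well and a log2 ratio of 4.36 in place of 1.81 without the top well of each class.

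Several but not all subunits of the replicative helicase had low ratios within the list. Mcm7, with a log2 ratio of 2.20, lay above the list median of 1.75, and Mcm3, at 1.27, lay under it. Mcm4 was at 140 against 118.3 CPM (log2 ratio 0.24), Mcm6 at 246 against 151 CPM (0.70), Mcm2 at 151 against 78.97 CPM (0.92) and Mcm5 at 166 against 79.6 CPM (1.05). Mcm4 ran to 3246 CPM in non-cycling and 697 CPM in cycling cells, and 12 of 37 non-cycling cells lay above its cycling median of 26.4 CPM. Its log2 ratio was 5.40 in plate rows K to M, −0.55 in rows N to P and −1.18 with thinned cells, so its place in the list depends on the wells used. Cdc45, which joins the helicase when origins fire, had the highest ratio of the list at 65.3 against 5.15 CPM (12.7-fold, 10.4 to 15.6). Its log2 ratio of 3.43 was 5.68 without the top well of each class and 1.60 without wells with a collagen at 100 CPM, and it was detected in only 5 cycling cells and 1 non-cycling cell after thinning.

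Summed lists show how the classes, as chosen by Top2a and Mki67, divide between phases. The G2 and M sum ran from 2.21 to 13883 CPM in cycling cells (median 3700) and from 0 to 2032 CPM in non-cycling cells (median 112.1), and 34 of 49 cycling cells (69.4%, 54.6% to 81.7%) exceeded every non-cycling cell. The S phase sum ran from 156 to 10850.2 CPM (median 3190) against 112.1 to 14682 CPM (median 590), and 4 of 37 non-cycling cells exceeded the cycling median. An S phase sum above 3000 CPM was held by 6 non-cycling cells. The name of this class thus follows the rule alone and does not exclude cells in S phase. The G2 and M sum exceeded the S phase sum in 20 of 49 cycling cells. In 9 cycling cells the G2 and M sum was under 500 CPM, with S phase sums from 156 to 5697 CPM. Cells between the limits lay near the non-cycling cells, with medians of 229 CPM for G2 and M and 1065 CPM for S phase, and 1 of the 37 exceeded the highest non-cycling cell in G2 and M.

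Chromatin proteins and tubulins that accompany division were also higher. Of 20 measured genes, 15 were 2-fold or more higher in cycling cells, against 20.8% of all genes, and none was 2-fold lower (median log2 ratio 1.385). H2afz, a histone H2A variant, ran from 0 to 2537 CPM in cycling cells (median 1045) and from 0 to 935 CPM in non-cycling cells (median 93.8), and no non-cycling cell reached the cycling median. Its summed level was 1122 against 332 CPM, 3.38-fold higher (3.29 to 3.47). Tubb5, a beta-tubulin, ran from 0 to 8016 CPM (median 3549) against 20.6 to 2852 CPM (median 1452), again with no non-cycling cell above the cycling median, and was 2.20-fold higher in sum (2.18 to 2.23). Tuba1b, an alpha-tubulin, was 3.26-fold higher and Hist1h2ae, a replication-dependent histone gene, 11.5-fold higher (9.83 to 13.5). Ptma, an acidic nuclear protein, and Ezh2, the methyltransferase of Polycomb, stayed within 2-fold with log2 ratios of 0.88 and 0.36, as did Tubb4b, Dnmt1 and Cbx5.

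**Figure D2:**
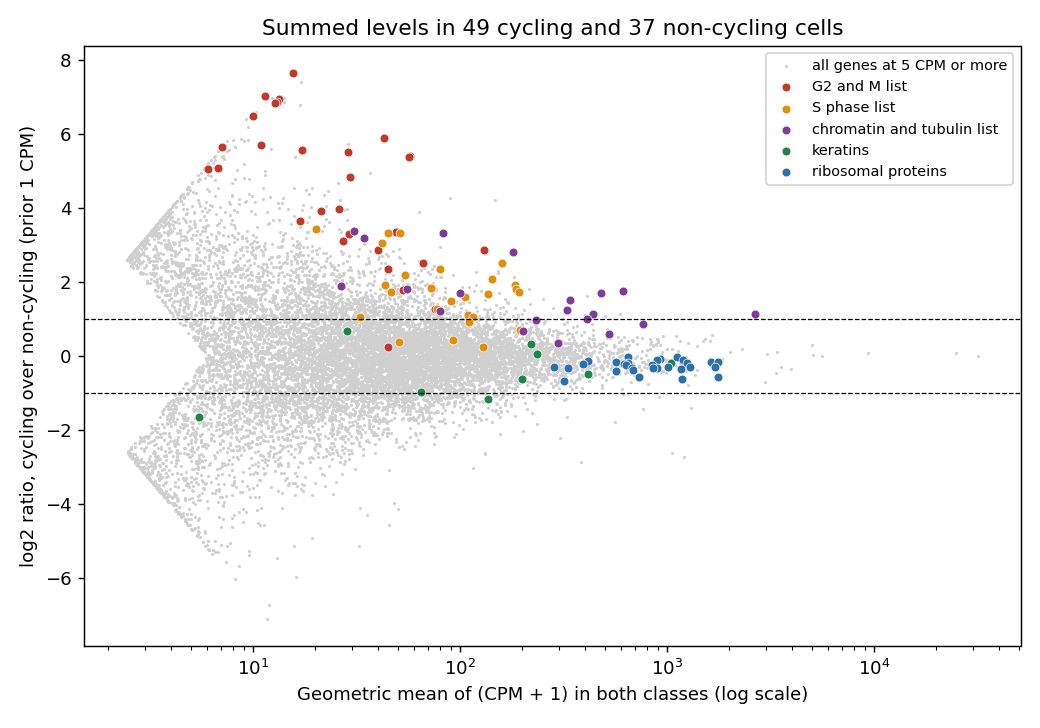
Log2 ratio of cycling over non-cycling cells (y axis, prior of 1 CPM) against the geometric mean of CPM + 1 in both classes (x axis, log scale) for each gene at 5 CPM or more, with 5 lists coloured and dashed lines at 2-fold. G2 and M genes lie highest, with a median of 5.07, S phase genes lie at a median of 1.75, and ribosomal protein genes stay within 2-fold.

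G1 regulators went both ways. Of 23 measured members, 9 were 2-fold higher in cycling cells, 3 were 2-fold lower and 11 within 2-fold (median log2 ratio 0.62). Among all genes 20.8% were higher and 18.4% lower. The higher members included the E2F family gene E2f8, a repressor active late in the cycle, at 39.6 against 0.202 CPM (log2 ratio 5.08). The 3 lower members were the cyclin D1 gene Ccnd1 and the proto-oncogenes Myc and Mycn. Myc was at 8.61 against 18.9 CPM and Mycn at 9.001 against 33.1 CPM, and each was detected in at most 3 cells of a class after thinning.

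D-type cyclins were lower in cycling cells or similar. Ccnd1, which couples growth signals to entry into the cycle, ran from 0 to 803 CPM in cycling cells (median 142) and from 0 to 1416 CPM in non-cycling cells (median 261), and 27 of 37 non-cycling cells exceeded the cycling median. Its summed level was 210 against 474 CPM, 2.26-fold lower (2.19 to 2.33), with a log2 ratio of −1.55 without the fibroblast-marked wells described below. Ccnd2, a second D-type cyclin, ran from 340 to 7770 CPM (median 2089) against 0 to 18308 CPM (median 2981), with summed levels of 2332 and 3762 CPM (1.61-fold lower, 1.598 to 1.629). The classes overlapped widely for both cyclins. The difference was uneven over the plate: the log2 ratio of Ccnd1 was −0.41 in rows K to M and −1.33 in rows N to P, and that of Ccnd2 −0.02 and −1.31. Cdk4, the kinase partner of both, was at 975.4 against 795 CPM.

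The CDK inhibitors of the p21 family had log2 ratios within 2-fold, which for Cdkn1a and Cdkn1b depended on the setting. Cdkn1c (p57), a maternally expressed imprinted inhibitor, ran from 30.9 to 2617 CPM in cycling cells (median 411) and from 0 to 2271 CPM in non-cycling cells (median 327), with summed levels of 430.3 and 534 CPM. Cdkn1a (p21) was at 49.9 against 32.04 CPM and Cdkn1b (p27) at 7.02 against 3.03 CPM. The log2 ratios, with the prior of 1 CPM, were −0.31, 0.62 and 0.99 in this order. That of Cdkn1a was 4.32 in rows K to M and −0.17 in rows N to P, that of Cdkn1b ran from −1.75 as the mean of per-cell CPM to 2.36 in cells with 500000 reads or more, and Cdkn1a and Cdkn1b had medians of 0 CPM per cell in both classes. Inhibitors of the INK4 family were 2-fold higher in cycling cells, Cdkn2c (p18) at 11.1 against 0.252 CPM and Cdkn2d (p19) at 45.2 against 15.9 CPM.

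Genes lower in cycling cells came from varied functions. Under the same rule on level and spread, the 12 lowest log2 ratios belonged to Creb3l2, Arl13b, Ift20, Sel1l, Tpp1, Ulk1, Kdm5b, Mxd4, Kidins220, Tet2, Phldb2 and Stx5a, from −2.14 for Creb3l2 to −1.52 for Stx5a. Kdm5b, a histone H3K4 demethylase, ran from 0 to 1448 CPM in cycling cells (median 88.1) and from 0 to 2153 CPM in non-cycling cells (median 366), and 26 of 37 non-cycling cells exceeded the cycling median. Its summed level was 186 against 582 CPM, 3.13-fold lower (3.04 to 3.22), and its log2 ratio lay between −1.94 and −1.07 over all 19 alternatives that were run.

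Others of the 12 have recognised roles. Mxd4, an antagonist in the Myc network, was at 17.3 against 55.1 CPM (3.19-fold lower, 2.90 to 3.51), with per-cell medians of 0 and 16.97 CPM. Arl13b and Ift20 both serve the primary cilium, as a small GTPase of its membrane and as a part of its transport machinery. Arl13b was at 36.6 against 138 CPM (3.78-fold lower, 3.55 to 4.03) and Ift20 at 44.1 against 157 CPM (3.57-fold lower, 3.37 to 3.78). Ulk1, a kinase that starts autophagy, was at 37.3 against 128.7 CPM, Tpp1, a lysosomal peptidase, at 76.4 against 262 CPM, and Tet2, a dioxygenase that oxidises methylated cytosine, at 47.2 against 138 CPM. The per-cell ranges of all of these overlapped, and several differences were lost in plate rows K to M, where the log2 ratio was 0.24 for Tet2, −0.38 for Mxd4, −0.68 for Tpp1 and −0.72 for Stx5a.

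**Figure D3:**
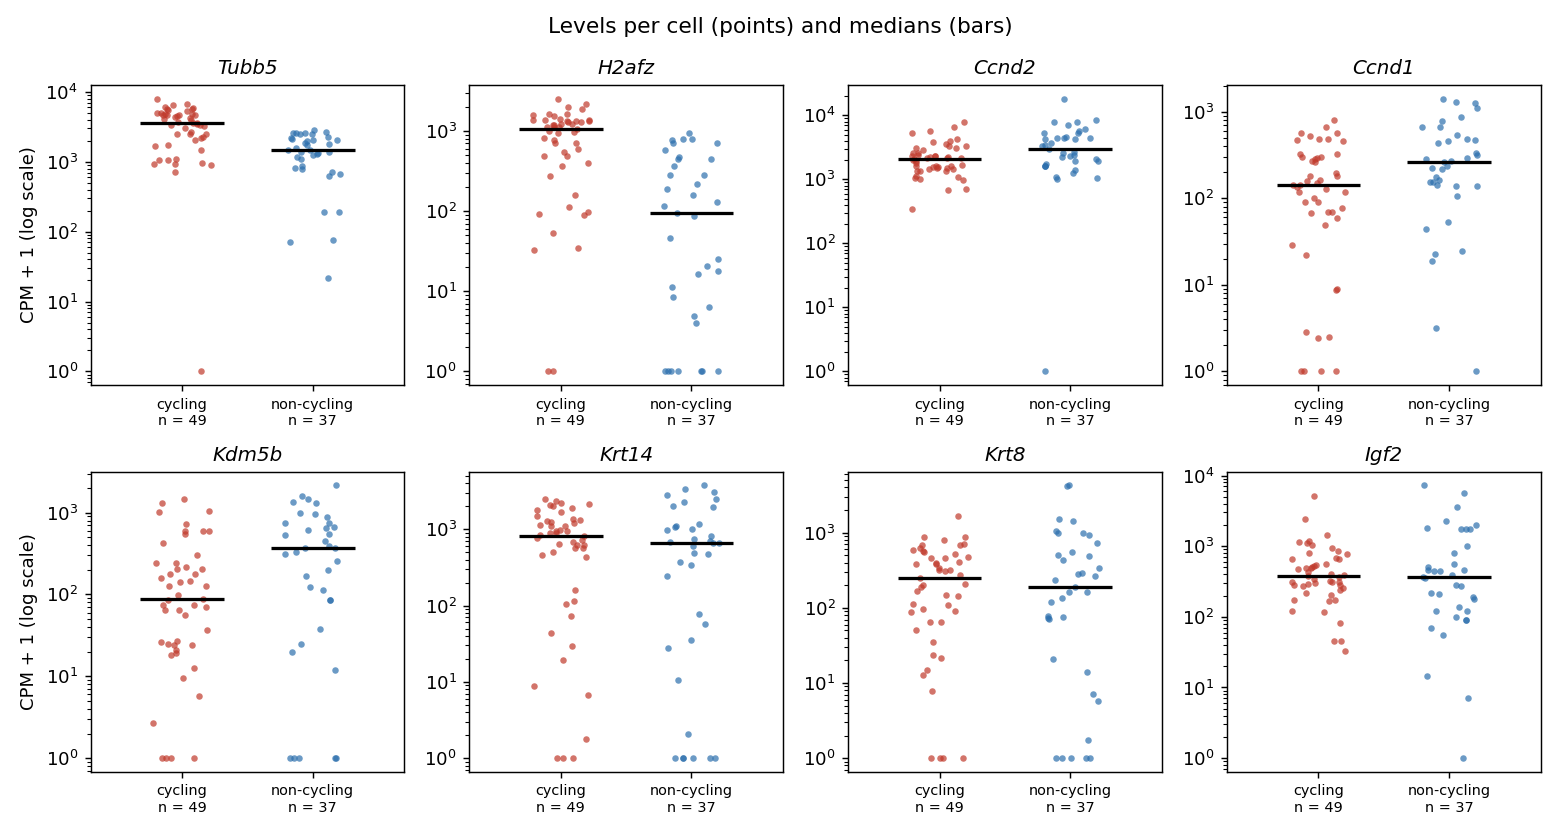
Levels per cell as CPM + 1 on log axes for 8 genes in 49 cycling and 37 non-cycling cells; points are cells and bars are medians. Medians of Tubb5 and H2afz are higher in cycling cells (3549 against 1452 and 1045 against 93.8 CPM), those of Ccnd2, Ccnd1 and Kdm5b are lower, and those of Krt14, Krt8 and Igf2 lie closer together.

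The share of lineage genes that were 2-fold apart either way lay near the background. More of them were lower than higher, to an extent that depended on the wells used. The basal, keratin, pan-luminal, hormone-receptor, bud, Wnt and Notch lists held 74 measured genes, each counted singly. In cycling cells 6 of them were 2-fold higher and 20 were 2-fold lower, 35.1% apart either way against 39.2% of all genes. By direction the background was 20.8% higher and 18.4% lower. Without the fibroblast-marked wells described below, 7 lineage genes were higher and 16 lower, next to 19.2% of all genes lower. Without the top well of each gene and class, 10 of 65 measured lineage genes were lower, next to 1239 of 10318 genes in all. Without the pair of wells with Ly6a, Cited1 and Prlr described below, 13 of 72 were lower, next to 18.1% of all genes. The excess of lower lineage genes over the background therefore depended on this pair, whose identity was not settled. The basal keratin genes were close: Krt5 was at 240 against 229.8 CPM (log2 ratio 0.06) and Krt14 at 978 against 1110 CPM (−0.18). Krt14 ran from 0 to 2506 CPM in cycling cells (median 812) and from 0 to 3761 CPM in non-cycling cells (median 652). Krt15, a keratin of basal and progenitor cells, was at 161 against 247 CPM (−0.62), and the luminal keratin genes Krt8 and Krt18 were at 351 against 493 CPM (−0.49) and 247 against 195 CPM (0.34). The per-cell median of Krt8 went the other way and was higher in cycling cells, at 249.8 against 186.5 CPM. Of the 9 keratin genes measured none was 2-fold higher and 2 were 2-fold lower, Krt17 at 90.3 against 203 CPM (log2 ratio −1.16, and 0.02 without the top well of each class) and Krt1 at 2.10 against 8.73 CPM. Thinned to equal depth Krt14 was detected in 39 of 49 and 25 of 37 cells and Krt8 in 37 and 22.

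Of 11 basal and myoepithelial genes none was 2-fold higher and 3 were 2-fold lower (Acta2, Sparc and Trp63). Among all genes 20.8% were higher and 18.4% lower. Trp63, the transcription factor of basal and stratified epithelia, was at 158 against 318 CPM, 2.02-fold lower (1.95 to 2.09), but its per-cell median was higher in cycling cells (120.7 against 78.2 CPM) and its log2 ratio was −1.80 in rows K to M and −0.16 in rows N to P. Acta2, smooth muscle actin, was at 7.95 against 80.5 CPM, with 96% and 97% of its reads in 1 well of each class. Sparc, a matrix protein, was at 806 against 2122 CPM, and its log2 ratio of −1.40 was 0.02 without the fibroblast-marked wells. Of the 12 pan-luminal genes, 1 was 2-fold higher (Elf5, 97% of its cycling reads in 1 well) and 2 were 2-fold lower (Areg and Cldn3). Both shares lay under those of all genes. Epcam, the epithelial adhesion molecule, was at 789 against 597 CPM and Gata3, a luminal and bud transcription factor, at 811 against 901 CPM.

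Hormone-receptor genes had the lowest list median, at −1.86, on a background of 18.4% of all genes lower and 20.8% higher. Of 8 measured members, 5 were 2-fold lower in cycling cells (Cited1, Ly6a, Prlr, Areg and Esr1) and 1 was higher (Pgr). A pair of neighbouring non-cycling wells, in plate row K columns 15 and 16, stood apart in these genes, and without both the list median was −0.50. They held Ly6a, a surface marker of hormone-sensing luminal cells, at 1724 and 264 CPM, Cited1, a transcriptional co-regulator, at 1754 and 274 CPM, and Prlr, the prolactin receptor, at 2742 and 509 CPM. No other cell of either class held these 3 genes together at 100 CPM. The wells beside them, columns 1 to 14 of row K, were labelled adult luminal, and whether this pair holds embryonic progenitors was not settled, so values that rest on it may not describe such cells. The first of these wells had Krt8 at 4275 CPM, Krt18 at 4146 CPM, Lgr5 at 2.52 CPM and no Krt5 read, and without both wells the log2 ratio was 1.60 for Prlr in place of −2.73, −0.45 for Areg in place of −2.65 and 1.27 for Krt18 in place of 0.34. Esr1, the oestrogen receptor gene, was at 100.5 against 212 CPM (2.11-fold lower, 2.02 to 2.20), with per-cell medians of 28.1 and 65.1 CPM. Its log2 ratio of −1.07 stayed past 2-fold in 13 of 19 alternatives and was −0.10 without wells with a collagen at 100 CPM.

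Mammary bud genes were 2-fold apart about as often as genes in general. Of 19 measured members, 2 were 2-fold higher (Msx1 and Eya1), 5 were 2-fold lower (Tbx2, Wnt10b, Bmp4, Hoxc8 and Sostdc1) and 12 lay within 2-fold (median log2 ratio −0.15), 7 apart in all against 39.2% of all genes. Without the fibroblast-marked wells 1 gene was lower and 1 higher, and the log2 ratio of Sostdc1, which encodes a secreted antagonist of BMPs and Wnts, was 0.78 in place of −1.09. Sox11, a SoxC transcription factor of fetal epithelia, was at 1093 against 1230 CPM, Pthlh, a bud signal to the mesenchyme, at 336 against 372 CPM, and Tbx3, a T-box factor that marks the mammary line, at 300.3 against 226 CPM. The bud homeobox gene Msx1 had 378 reads in 8 cycling cells and none in non-cycling cells, 61.1-fold higher if the empty class is set to a floor of 3 reads. Its log2 ratio of 3.36 was 1.51 with a prior of 5 CPM, so the size of this difference depends on the setting. Tbx2, the neighbour of Tbx3 in the T-box family, was read in 1 cell of each class.

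The Wnt list had 1 of 16 measured genes 2-fold higher (Rspo1) and 3 lower (Wif1, Tcf7 and Ccnd1), with a median log2 ratio of −0.04. Its background was 20.8% higher and 18.4% lower. Lgr5, whose reporter was the basis of the sort, ran from 0 to 3002 CPM in cycling cells (median 468) and from 0 to 1075 CPM in non-cycling cells (median 291). Its summed level was 629 against 443 CPM (1.42-fold higher, 1.39 to 1.46), and at equal depth it was detected in 41 of 49 and 25 of 37 cells, with overlapping intervals (70.3% to 92.7% and 50.2% to 81.99%). Ctnnb1, beta-catenin, was at 640 against 684 CPM and Znrf3, a ligase that removes Wnt receptors, at 324 against 355 CPM. In the Notch list 5 of 7 measured genes lay within 2-fold, next to 39.2% of all genes 2-fold apart. Jag2, a ligand, was at 71.4 against 24.1 CPM (2.96-fold higher, 2.69 to 3.27). Hey1, a target, was at 5.70 against 16.7 CPM (2.94-fold lower, 2.48 to 3.49). Neither held throughout: the log2 ratio of Jag2 was 0.55 as the mean of per-cell CPM in place of 1.53, and that of Hey1 −0.51 without top wells in place of −1.41.

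Fibroblast transcripts were unequal between the classes, which touches the genes that follow. All 8 fibroblast or mesenchyme markers were at 5 CPM or more in both classes, and 7 of the 8 were 2-fold lower in cycling cells, with Postn at 62.6 against 34.9 CPM as the exception. Their summed level was 1328 CPM in cycling cells (11.99 to 17597 CPM per cell, median 206) and 7907 CPM in non-cycling cells (0 to 51895 CPM, median 218), with 41.3% of the latter in 1 well. Col1a1, a fibrillar collagen, was at 142 against 1039 CPM. At equal depth 10 of 49 cycling and 9 of 37 non-cycling cells held 3 or more of the markers, shares of 20.4% and 24.3% with overlapping intervals (10.2% to 34.3% and 11.8% to 41.2%). Of 6 immune markers, 5 had no read in either class, and the 6 endothelial markers were all under 5 CPM in both.

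Among imprinted and fetal growth genes, Igf2, H19 and Peg3 were lower in cycling cells in sum but not in their median per cell. Of 19 measured members, 7 were 2-fold lower and 3 were 2-fold higher (median log2 ratio −0.16), against 18.4% and 20.8% of all genes. Igf2, a fetal growth factor expressed from the paternal allele, was at 469 against 1257 CPM (2.68-fold lower, 2.63 to 2.73), yet it ran from 32.3 to 5204 CPM per cycling cell (median 383) and from 0 to 7269 CPM per non-cycling cell (median 361), and 40% of the non-cycling reads came from 1 well. H19, the maternally expressed RNA beside it, was at 626 against 1335 CPM with per-cell medians of 482 and 478 CPM. Peg3, a paternally expressed zinc finger gene, was at 429.5 against 875 CPM with per-cell medians of 240.3 and 105.7 CPM.

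Without wells that held 3 fibroblast markers, leaving 39 cycling and 28 non-cycling cells, 1 imprinted gene was 2-fold lower and 1 higher, and the median was 0.17. The log2 ratio was then 0.17 in place of −1.42 for Igf2, 0.36 in place of −1.09 for H19 and 0.17 in place of −1.02 for Peg3. Zim1, an imprinted zinc finger gene beside Peg3, remained lower at −2.23 in place of −2.03, with summed levels of 16.1 and 69.0 CPM in all cells. Grb10, an adaptor that restrains growth signals, was at 467 against 522 CPM. The 3 members that were 2-fold higher were Usp29, Phlda2 and Magel2, the last from 1 well. G2 and M genes kept a median of 5.13 and S phase genes of 1.72 in the same cells.

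**Figure D4:**
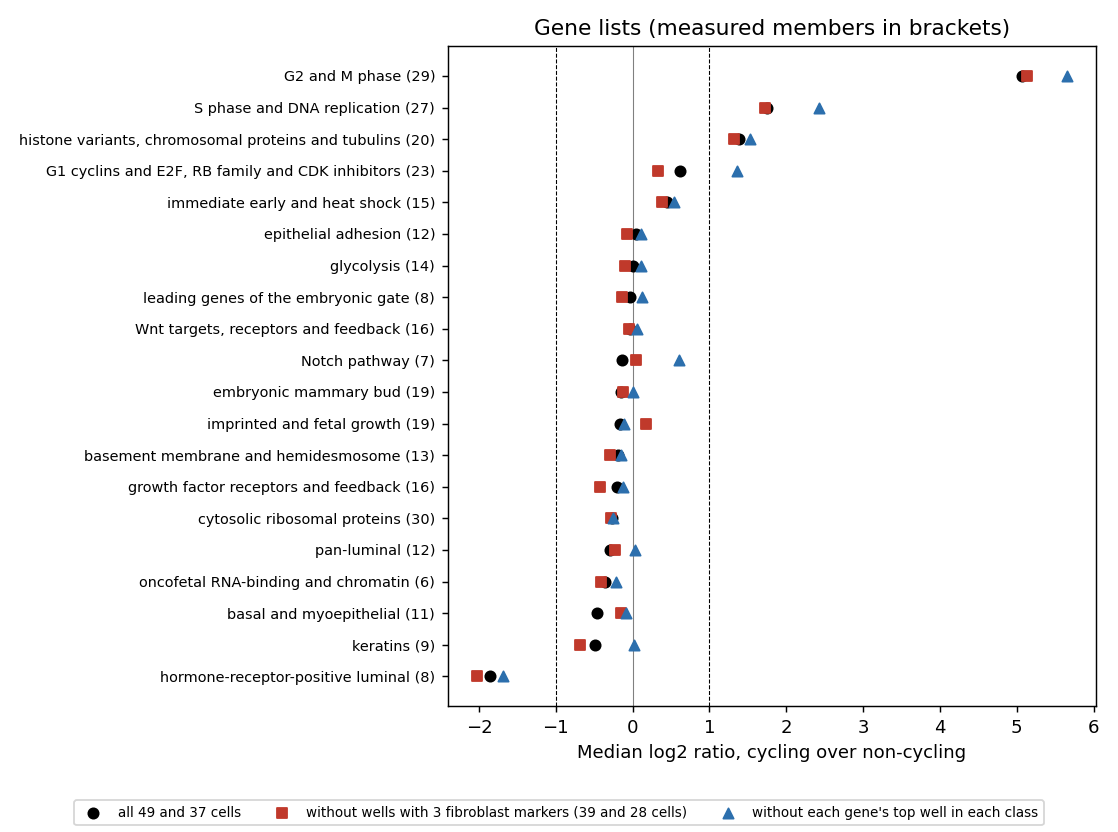
Median log2 ratio of cycling over non-cycling cells (x axis) for 20 gene lists, with the number of measured members in brackets, over all cells (black circles), without wells with 3 fibroblast markers (red squares) and without the top well of each gene and class (blue triangles). The cell cycle lists lie at 1.385 or above except G1 regulators, most other lists lie near 0, and hormone-receptor genes lie at −1.86.

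Structural and signalling genes of the embryonic epithelium stayed mostly within 2-fold, as did genes in general, of which 39.2% were 2-fold apart. Of 13 basement membrane and hemidesmosome genes, 2 were 2-fold lower (Nid1 and Itgb4) and none was higher. Itga6, the integrin alpha 6 by which cells were sorted, ran from 22.8 to 3418 CPM in cycling cells (median 788) and from 70.97 to 11132 CPM in non-cycling cells (median 905), and Nid1, a basement membrane linker, was at 28.4 against 128.01 CPM, detected in 4 and 5 cells after thinning. Of 12 adhesion genes 1 was 2-fold lower, the desmosome gene Pkp1, with 94% of its non-cycling reads in 1 well. Among 6 oncofetal genes 1 was 2-fold lower, Lin28b, a fetal RNA-binding protein, at 5.21 against 27.3 CPM (log2 ratio −2.19, or −0.64 in rows K to M), while Hmga2, a fetal chromatin protein, was at 307 against 286 CPM.

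Of 16 growth factor receptors and feedback genes, 1 was 2-fold higher (Etv4) and 3 were 2-fold lower (Pdgfra, Fgfr3 and Spry1). The background was 20.8% higher and 18.4% lower. Etv4, a transcription factor downstream of FGF receptors, was at 139 against 65.6 CPM (2.11-fold higher, 1.99 to 2.25, and within 2-fold in 4 of 19 alternatives), and Pdgfra, which encodes the CD140a protein used for exclusion, at 31.8 against 84.6 CPM. Fgfr2, the receptor of bud FGF signals, had a log2 ratio of −0.16. None of the 8 leading genes of the embryonic gate was 2-fold apart: Ndnf, a secreted neurotrophic factor, was at 994 against 789 CPM, Fn1, fibronectin, at 741 against 521 CPM, and Irs4, an insulin receptor substrate, at 417 against 267 CPM.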

How the data were processed

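The deposited values were raw read counts per gene and well in 1 table (49585 genes, 92 spike-ins, 384 wells), made by the authors from Smart-seq2 libraries amplified for 24 cycles, per the labels' protocols. The submitters' processing notes name cutadapt 1.13, STAR 2.5.2b, HTSeq 0.6.0 and the genome GRCm38. Annotation and strand mode: not given in the sources used here. Overlapping and antisense genes can therefore share reads. Symbols came from GENCODE M21 for 49326 identifiers, 5577 of them without the version, and 259 were not matched.

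Among the 14 embryonic wells left out, 10 had too few reads, 6 too few genes and 5 too many mitochondrial reads, some for more than 1 reason. Doublets were not called, and no index pair was shared by wells. Genes under 5 CPM in both classes were not counted as measured. Folds are ratios without the prior, and a class with 0 reads was set to a floor of 3 reads. Shares "at equal depth" use cells thinned to 50000 reads with 5 reads as detection. The calculation of the ratio was checked on simulated class sums with known folds. These held no variation between cells, so the check does not cover the effect of single wells. Python 3.11.15, numpy 2.4.6, pandas 2.3.3, scipy 1.17.1 and edgeR 4.0.16 (TMM scaling only) were used.

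The classes, the 20 gene lists and the marker lists were chosen with earlier results of these data known. Named genes were the 12 highest and 12 lowest ratios (50 CPM or more in the higher class, read in at least 50% of its cells, no cell with over 20% of its reads, ribosomal, mitochondrial, Gm-numbered and Rik genes left out). To these came, per list, up to 4 members of highest level, the extremes and up to 3 members against the median, the 5 genes most alike Top2a and Mki67, and Top2a, Mki67, Krt5, Krt14, Krt15, Krt8, Krt18, Trp63, Lgr5, Ccnd1, Ccnd2, Cdkn1a, Cdkn1b, Cdkn1c, H19 and Igf2. Cdc20, Mcm2, Mcm3, Mcm5, Mcm6, Mcm7, the marker genes and other members behind counts of 5 or fewer were added after their values were seen. Alternatives covered scaling, thinning, minimum level, prior, cell filter, the limit for Top2a and Mki67, plate rows, fibroblast-marked wells and single wells.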

Additional observations from a re-analysis of the deposited data

How the results depend on the processing

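No paired analysis was possible because the labels name no animal or litter that could link cells of both classes. Over 17 other settings and 2 chosen after seeing the data, 27 to 29 G2 and M genes and 16 to 25 S phase genes were 2-fold higher in cycling cells. The number of higher genes was 2554, but 1436 at a minimum of 20 CPM, 4130 in plate rows K to M and 4157 without wells with a collagen at 100 CPM. Lower genes numbered 2268, but 1328 at 20 CPM and 1239 without the top well of each gene and class. That last setting raised the higher share of genes apart from 52.97% to 69.2% and the median of all genes to 0.27, and left 17 lineage genes apart in place of 26. Imprinted genes apart numbered 10, but 5 with thinned cells, with the mean of per-cell CPM, in rows N to P and without top wells, 6 with a limit of 50 CPM, and 2 without fibroblast-marked wells. The ratio of median RNA per well, cycling over non-cycling, was 1.49, but 1.77 in rows K to M, 1.04 in rows N to P and 1.38 under the stricter cell filter.

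Log2 ratios of single genes that were 2-fold apart reversed as follows, and beyond the removed wells themselves the cause was not tested. Without wells with 3 fibroblast markers they became 3.04 for Acta2, 3.18 for Dcn, 0.36 for H19, 0.17 for Igf2, 0.17 for Peg3, 0.023 for Sparc and −0.41 for Usp29. Without wells with a collagen at 100 CPM (27 and 15 cells left) they became 3.28 for Acta2, 3.55 for Dcn, 2.49 for Lum, 0.39 for H19, 0.30 for Peg3, 1.05 for Sparc, 3.20 for Myc, 1.79 for Mycn, 1.24 for Wif1 and −2.07 for Usp29. In rows N to P they became 0.24 for Dcn, 4.74 for Pfkp and −0.035 for Usp29, and in rows K to M 0.24 for Tet2. Pfkp was at 0.035 as the mean of per-cell CPM and 0.22 without top wells, Rspo1 at −0.050 with both marker genes required, and Prlr at 1.60 without the pair of wells with Ly6a, Cited1 and Prlr. Genes within 2-fold changed sign too, among them Notch1 and Krt18 (−0.92) in rows K to M, Postn (−0.74) in rows N to P, Mcm4 (−1.18) with thinned cells and Cdkn1b (−1.75) as the mean of per-cell CPM.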

Other observations

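Cytosolic ribosomal protein genes were slightly lower in cycling cells throughout the list. All 30 had log2 ratios below 0, from −0.67 for Rpl37 to −0.01 for Rpl19, with a median of −0.27 and none 2-fold apart. The list median stayed between −0.38 and −0.19 over the 19 alternatives, while Rpl19 alone ran from −0.23 to 0.21. Rpl37, a large-subunit protein, ran from 60.8 to 652 CPM in cycling cells (median 243) and from 105.2 to 1193 CPM in non-cycling cells (median 435), and 27 of 37 non-cycling cells exceeded the cycling median. Spearman correlations with the sum of Top2a and Mki67 over all kept embryonic cells covered only the 4679 genes at 50 CPM or more in cycling cells. Among these the lowest were those of Rps27 (−0.41), Rpl37 (−0.38), Eif3f (−0.33), Rplp2 (−0.33) and Ccnd2 (−0.32). Genes under that level in cycling cells, such as Mxd4, Arl13b and Ulk1, were not compared.

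Immediate early and heat shock genes, which respond within minutes to growth factors and to tissue dissociation, had a median log2 ratio of 0.45, with 3 of 15 measured genes 2-fold higher in cycling cells (Dusp1, Ier3 and Zfp36) and 1 lower (Hspa1b), next to 20.8% and 18.4% of all genes. Dusp1, a phosphatase that dampens MAP kinases, was at 159 against 43.8 CPM (3.64-fold higher, 3.39 to 3.91), Fos at 525 against 377 CPM, Egr1 at 1052 against 770.2 CPM, and the heat shock gene Hspa1b at 4.18 against 14.9 CPM. Glycolysis genes had a median of 0.01, with 1 of 14 genes 2-fold higher (Gapdh) and 3 lower (Gpi1, Hk2 and Pfkp), shares near or under the same background. Gapdh, often used as a reference transcript, ran from 0 to 2195 CPM in cycling cells (median 673) and from 0 to 800.4 CPM in non-cycling cells (median 308), was 2.21-fold higher in sum (2.16 to 2.27), and stayed at a log2 ratio of 1.07 to 1.32 over the 19 alternatives. In the same pathway Gpi1, glucose-6-phosphate isomerase, was 2.55-fold lower (2.46 to 2.66), with log2 ratios from −1.67 to −1.01.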
